A study of Spongilla lacustris with 18 samples.

Results

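Juvenile freshwater sponges that had received only the vehicle were compared at 2 times, after 1 h in 0.03% DMSO and after 4 h in DMSO followed by washout and 24 h of recovery. The animals were wild-type (WT) Spongilla lacustris, grown for 9 days at 18 °C in M-medium, and each library was made from polyA RNA of the whole body. The comparison used 6 of the 18 libraries of the series, 3 in each group, and the 3 DMSO libraries taken at 4 h are given beside them as a time in between. The same interval was also read in 6 libraries from sponges given 37.5 µM tryptamine, a trace amine derived from tryptophan, at 1 h and after the same washout and recovery. DMSO, or dimethyl sulfoxide, is the solvent of tryptamine. The comparison asks what changed over about a day of culture without the drug. Time in culture, age, the presence of DMSO and the change of medium at washout all differed between both groups together, so they cannot be told apart. The time of day of sampling is not given by the labels and may have differed with them. The labels do not say that replicates were separate cultures or clones, so p-values measure only the spread between these samples, which may be technical.

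Spongilla lacustris is a filter feeder without nerves or muscles. Collar cells called choanocytes drive water through its canals, flat pinacocytes line the canals and the outer surface and can contract, and motile archaeocytes act as stem cells and digest captured food. Sponges carry genes related to those of animal signalling pathways such as Wnt and TGF-beta, to transcription factors of animal development and to innate immunity genes. The gene names used here come from the deposited table and state similarity to genes of other animals, not identity, and the roles given are those known from vertebrates unless another species is named. Some symbols are shared, for example by 5 genes for GPR157, 4 for MLT-7, 3 each for USP50 and TRPA1, and 2 each for TARS and SDS. Values given under such a symbol are those of the gene with the printed identifier alone. In whole bodies, fewer cells of a type and less RNA per cell cannot be told apart.

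Between 11448727 and 23769406 read pairs were counted in the 6 libraries, and the second library at 1 h was the deepest of the series. Levels are in CPM, a gene's read pairs scaled to a common TMM-adjusted library total. The floor set by 3 counts was at 0.126 to 0.262 CPM in the 6 libraries and covers counting error alone. Of 39562 genes in the table, 24125 were tested, and 38.3% of those carried a usable name. Differences are log2 changes of recovery against 1 h, tested with edgeR's quasi-likelihood test and adjusted by Benjamini-Hochberg over the 24125 genes. A gene was called at an adjusted p under 0.05.

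The edgeR test called 63 genes higher after recovery (0.261% of those tested) and 66 lower (0.274%), together 129 genes or 0.535%. All 129 had groups that did not overlap, which was true of 22.6% of the tested genes. At an unadjusted p under 0.05 there were 3227 genes, or 13.4%. The median log2 change was 1.51 among the genes called higher, from 0.69 to 3.94, and -1.44 among those called lower, from -0.57 to -6.67. Over all tested genes the median was 0.02, with quartiles of -0.21 and 0.27. Scaling by library totals alone, without composition factors, called 113 higher and 57 lower, with a median over all genes of 0.10. Usable names were carried by 34 of the called genes (26.4%), 10 of them higher and 24 lower. Leaving out a single library reduced the calls to as few as 6, without the first library at 1 h, and to at most 93, without the second recovery library. The counts without the second and the third libraries at 1 h were 11 and 50, and those without the first and the third recovery libraries were 8 and 11.

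**Figure D1:**
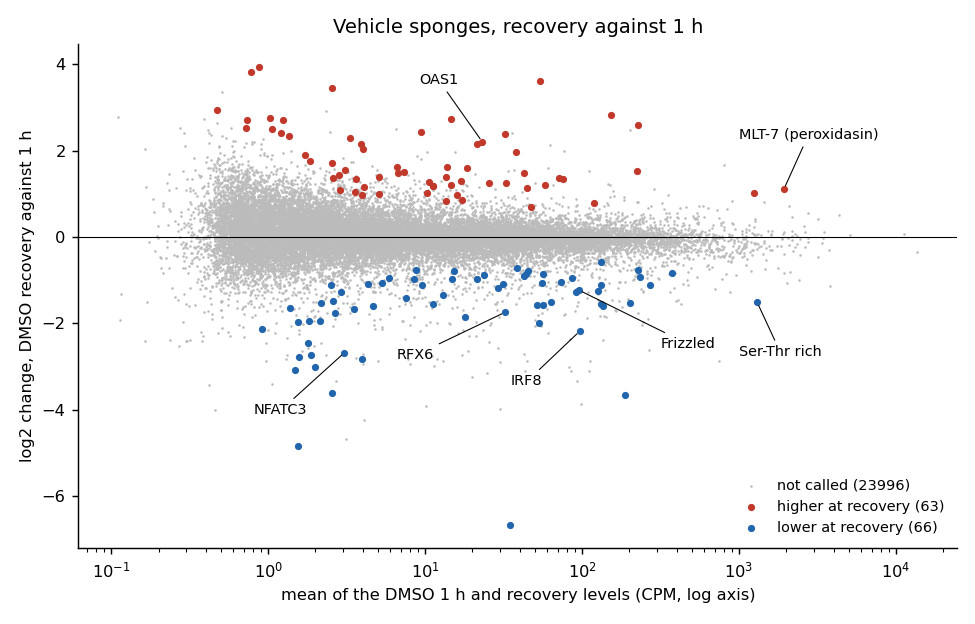
Each point is one of the 24125 tested genes, with the mean of the DMSO 1 h and recovery levels in CPM on a log axis and the log2 change of recovery against 1 h on the vertical axis. The 63 genes called higher are red, the 66 called lower are blue, and the called genes spread over levels from under 1 to over 1000 CPM.

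Several of the genes called lower carried names of transcription factors. IRF8,IRF4 c78626-g1, related to interferon regulatory factors that direct immune cell development, measured 129, 208 and 136 CPM at 1 h, 53.8, 41.6 and 46.9 CPM at 4 h and 33.4, 34.2 and 37.2 CPM after recovery. All 3 recovery libraries lay below every earlier DMSO library, and most of the difference was already present at 4 h. The log2 change was -2.18 (SE 0.27, edgeR adjusted p = 0.00246). Of the 34 named genes called, this was the only one that stayed called in each of 16 other settings (fold thresholds aside), with a log2 change from -2.30 to -1.93 and an adjusted p of at most 0.0298 when single libraries were left out.

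Relatives of regulatory factor X proteins, which bind DNA through a winged helix, were lower as well, 2 of the 3 tested. RFX6 c40424-g1, whose vertebrate relative acts in endocrine cells of the pancreas, measured 46.5, 59.1 and 43.5 CPM at 1 h, 17.9, 11.7 and 22.2 CPM at 4 h and 18.1, 12.3 and 14.3 CPM after recovery. The level at 4 h overlapped that of recovery, while both lay below 1 h, and the log2 change to recovery was -1.74 (SE 0.27, edgeR adjusted p = 0.013). The call ended without the first library at 1 h (adjusted p = 0.0527), without the second (0.0646) and without the third recovery library (0.0711). RFX1,RFX2,RFX3 c102056-g1, related to regulators of ciliary genes, measured 61.8, 61.4 and 45.7 CPM at 1 h and 32.3, 33.4 and 27.4 CPM after recovery, a log2 change of -0.86 (SE 0.18, edgeR adjusted p = 0.0381). That call ended under library totals alone and without any single library except the third at 1 h, with an adjusted p of up to 0.201. RFX4 c102429-g5 did not pass (log2 change -0.48, SE 0.19, edgeR adjusted p = 0.263). The flagellar axoneme genes, which form the core of the choanocyte flagellum, had 0 of 116 tested members called and a median log2 change of -0.01, and the intraflagellar transport and basal body genes 0 of 71 and -0.01.

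KLF10,KLF11 c99906-g1, related to zinc finger factors induced by TGF-beta, measured 114, 177 and 97 CPM at 1 h, 74.4, 113 and 98.5 CPM at 4 h and 64.4, 49.7 and 46.7 CPM after recovery. Here the 4 h libraries overlapped those of 1 h, and the recovery libraries lay below both (log2 change -1.27, SE 0.25, edgeR adjusted p = 0.0267). NFATC3,NFATC2,NFATC4,NFATC1 c93335-g1, related to factors that calcium switches on through calcineurin, measured 3.21, 9.9 and 2.69 CPM at 1 h, 2.43, 5.94 and 6.21 CPM at 4 h and 0.555, 1.05 and 0.885 CPM after recovery. The second library at 1 h stood above the other 2, all 3 lay above recovery, and the log2 change was -2.68 (SE 0.55, edgeR adjusted p = 0.0357). Without that second library at 1 h the change was -1.82 and the call ended (adjusted p = 0.203), and neither limma-voom (adjusted p = 0.0938) nor the fit of the compared groups alone (0.0652) called it. It also ended without the first library at 1 h (0.0645) and without the first, second or the third recovery library (0.154, 0.0718 and 0.18). The call of KLF10,KLF11 ended without the first or second library at 1 h (0.0899 and 0.147) and without the first, second or the third recovery library (0.0793, 0.0793 and 0.156). In the list of immediate early and MAP kinase feedback genes, the fast responders to outside signals, KLF10,KLF11 was the single member called of 25 tested, and the median was -0.02.

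**Figure D2:**
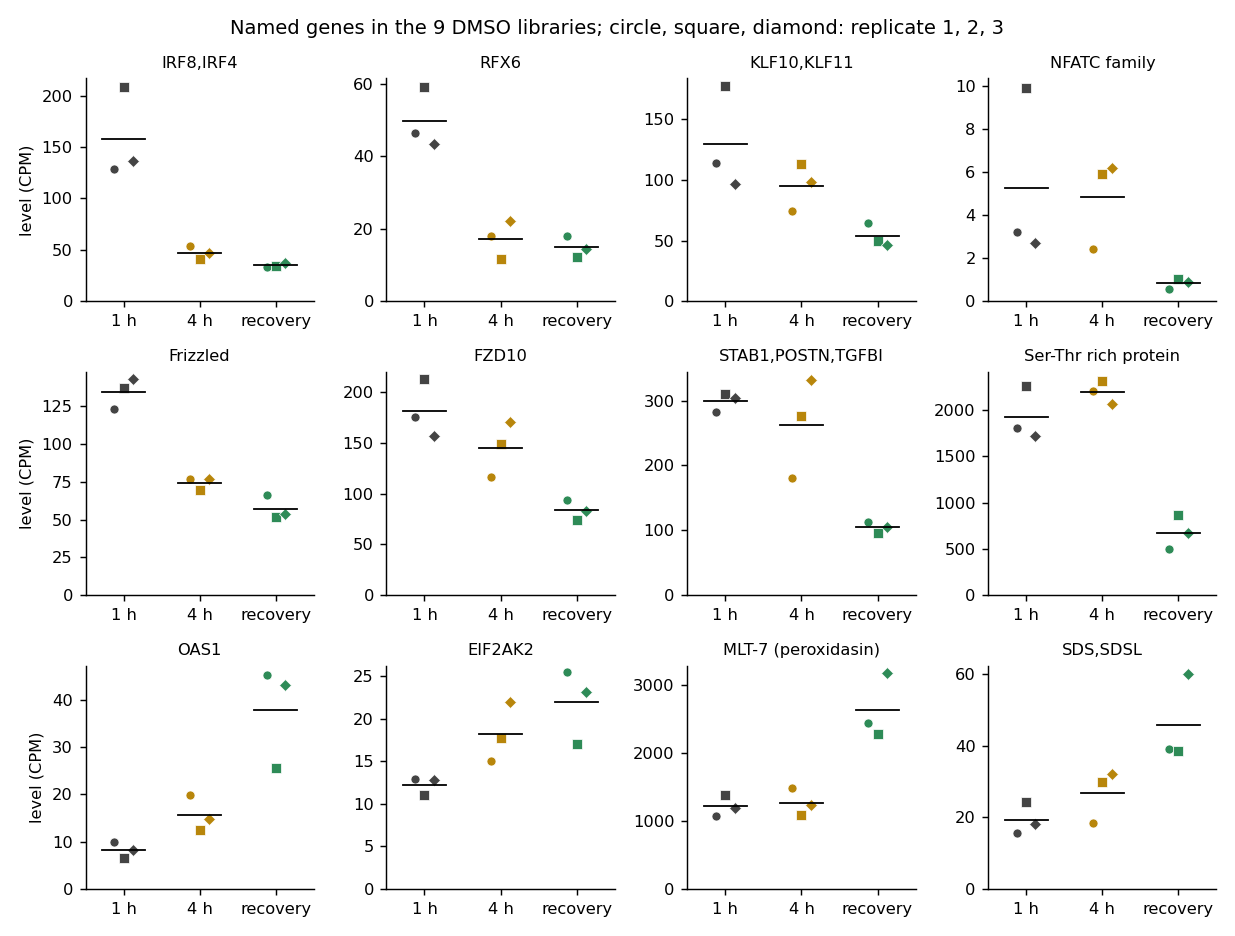
Levels in CPM of 12 named genes in the 9 DMSO libraries at 1 h, 4 h and recovery, with circle, square and diamond for replicates 1, 2 and 3 and a line at the mean. IRF8,IRF4, RFX6 and Frizzled were already low at 4 h, whereas the serine-threonine rich protein and MLT-7 differed from 1 h at recovery but not at 4 h.

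Frizzled proteins are the cell surface receptors of Wnt ligands, and 2 of the 8 tested genes named for them fell. The gene named Frizzled, c94416-g1, measured 123, 137 and 143 CPM at 1 h, 76.9, 69.8 and 76.8 CPM at 4 h and 66.4, 52 and 53.6 CPM after recovery. Every later library lay below every library at 1 h, and the log2 change to recovery was -1.23 (SE 0.21, edgeR adjusted p = 0.0167). FZD10 c100618-g1 measured 176, 213 and 157 CPM at 1 h, 117, 149 and 171 CPM at 4 h and 94.3, 73.7 and 82.8 CPM after recovery, a log2 change of -1.12 (SE 0.24, edgeR adjusted p = 0.0413). Its 4 h libraries overlapped those of 1 h and did not overlap recovery. The Frizzled call ended without the first or second library at 1 h (adjusted p = 0.0615 and 0.0896) and without the first or the third recovery library (0.0653 and 0.0779). That of FZD10 ended without any single library of the 6 (0.0583 to 0.203) and when a gene length trend was removed (0.052). Of the other 6, all of which missed the threshold, 3 were negative, from Frizzled/Smoothened family membrane region c100637-g2 at -1.26 (SE 0.29, edgeR adjusted p = 0.0581) to Frizzled c100637-g1 at -0.66 (SE 0.22, adjusted p = 0.184). The 3 positive ones lay between 0.09 and 0.30 on the log2 scale, among them FZD6 c103965-g1. The 3 tested genes named for Wnt ligands did not pass and ranged from -1.23 to -0.03, with WNT9A c98815-g1 at -0.54 (SE 0.27, adjusted p = 0.393). These gene families were put together after the values were seen.

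BMPER c104026-g3, related to a secreted protein that binds bone morphogenetic proteins and tunes their signal, stayed within its 1 h range at 4 h and was lower at recovery. It measured 46.3, 42.3 and 38.5 CPM at 1 h, 39.5, 39.2 and 39.8 CPM at 4 h and 16.2, 16.9 and 27 CPM after recovery (log2 change -1.08, SE 0.20, edgeR adjusted p = 0.0201). The call ended without the first or second library at 1 h (0.0949 and 0.106) or the first or second recovery library (0.108 and 0.0651). In the list of Wnt and TGF-beta pathway genes 0 of 27 tested members were called higher and 2 lower, FZD10 and STAB1,POSTN,TGFBI c102832-g1, the latter listed only through its last symbol. The list's median was -0.09 against 0.02 over all genes, and 20 of its 27 members were negative. Frizzled c94416-g1 and BMPER are outside this list because their table names did not match its patterns. Of the other members, SMAD2,SMAD3 c104209-g3, related to the proteins that carry TGF-beta signals to the nucleus, had a log2 change of -0.60 (SE 0.14, edgeR adjusted p = 0.0581) and TGFB1,TGFB3,TGFB2 c95960-g1, related to the ligands, of -1.68 (SE 0.41, adjusted p = 0.0815). Neither passed, and both were named after their values were seen.

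Some other falls carried names of secreted or matrix proteins, put together here after their values were seen. The gene named for an extracellular serine-threonine rich protein, c104188-g2, measured 1810, 2260 and 1720 CPM at 1 h, 2210, 2320 and 2070 CPM at 4 h and 496, 866 and 669 CPM after recovery. It was as high at 4 h as at 1 h, and every recovery library lay below every earlier one (log2 change -1.51, SE 0.26, edgeR adjusted p = 0.0167). The other 3 called genes of the same assembly component, among them one with the table name C4 (c104188-g3), moved alike, with log2 changes from -1.58 to -1.54. Genes of 1 component can share sequence, so the 4 may not be independent. STAB1,POSTN,TGFBI c102832-g1, similar to a scavenger receptor and to matrix proteins with fasciclin domains, measured 283, 311 and 304 CPM at 1 h, 180, 276 and 332 CPM at 4 h and 113, 95.5 and 105 CPM after recovery (log2 change -1.52, SE 0.26, edgeR adjusted p = 0.0167). The gene named for a thrombospondin type 1 domain, c100314-g1, a fold of many secreted proteins, measured 92.1, 97.9 and 107 CPM at 1 h and 39.2, 50.9 and 53.7 CPM after recovery (log2 change -1.05, SE 0.19, edgeR adjusted p = 0.0212). Without single libraries the adjusted p reached 0.106 for the serine-threonine rich protein, which lost its call without the first or second library at 1 h or the first or the third recovery library. It reached 0.101 for STAB1,POSTN,TGFBI, which stayed called only without the third library at 1 h. It reached 0.115 for the thrombospondin type 1 gene, which stayed called only without the second recovery library.

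No collagen passed the test. In the list of collagens and extracellular matrix genes 0 of 100 tested members were called, 25 had an unadjusted p under 0.05, 65 were negative and the median was -0.12. The gene of that list with the smallest p, a collagen, c101808-g1, measured 120, 102 and 85.7 CPM at 1 h, 81.1, 112 and 81.7 CPM at 4 h and 45.3, 59.3 and 38.5 CPM after recovery. Its recovery libraries lay below all others, with a log2 change of -1.10 (SE 0.26, edgeR adjusted p = 0.0632). DESeq2 called it (adjusted p = 0.00516). COL24A1 c102383-g2 had a log2 change of -1.13 (SE 0.27, edgeR adjusted p = 0.0632) and was named after its value was seen. The collagen genes used as markers of lophocytes, the matrix-making cells of sponges, summed to between 10900 and 12900 CPM at 1 h, 11500 and 14300 CPM at 4 h and 5670 and 7780 CPM after recovery. This sum over 41 genes did not overlap between 1 h and recovery, while 0 of the 36 tested genes were called and their median log2 change was -0.40. A sum leans on its most abundant members, and groups also did not overlap in 22.6% of all tested genes. The part of such cells in the falls of the secreted and matrix genes above was not tested.

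Rises included genes related to sensors of double-stranded RNA. OAS1 c100925-g2, related to an enzyme that double-stranded RNA activates to make oligoadenylates, measured 10, 6.45 and 8.16 CPM at 1 h, 19.9, 12.5 and 14.8 CPM at 4 h and 45.2, 25.5 and 43.1 CPM after recovery. The 3 times did not overlap and each step was upward (log2 change 2.21, SE 0.36, edgeR adjusted p = 0.0167). A second gene of its component without a usable name, c100925-g1, rose by 2.15 (edgeR adjusted p = 0.0235). EIF2AK2 c104502-g1, related to a kinase that double-stranded RNA activates to stop translation, measured 12.9, 11.1 and 12.8 CPM at 1 h, 15, 17.8 and 22 CPM at 4 h and 25.5, 17.1 and 23.2 CPM after recovery. Its recovery libraries overlapped those of 4 h and lay above 1 h, with a log2 change of 0.85 (SE 0.19, edgeR adjusted p = 0.0488). The OAS1 call held without the second recovery library and ended without any other single library, with an adjusted p of up to 0.125. EIF2AK2 likewise stayed called only without the second recovery library (up to 0.243), and limma-voom, the table without a filter and non-robust dispersions did not call it.

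The list of innate immunity and RNA sensing genes as a whole showed no common direction. Of its 116 tested members 1 was called higher (OAS1) and 1 lower (IRF8,IRF4), 62 were positive and 54 negative, and the median was 0.04. EIF2AK2 is outside this list. RSAD2 c4918-g1, related to the antiviral enzyme viperin, had a log2 change of 1.58 (SE 0.37, edgeR adjusted p = 0.0598), DHX58 c110325-g1, of the RIG-I family of RNA sensors, 1.15 (SE 0.28, adjusted p = 0.069) and IFIH1 c95910-g1, another member of that family, 1.40 (SE 0.42, adjusted p = 0.139). None of these passed, and they were named after their values were seen. The gene named for a scavenger receptor cysteine rich domain, c81450-g1, a domain of receptors that bind microbes and debris, measured 0.41, 0.269 and 0.308 CPM at 1 h, 0.989, 1.13 and 2.05 CPM at 4 h and 2.06, 1.54 and 2.83 CPM after recovery (log2 change 2.71, SE 0.42, edgeR adjusted p = 0.0121). At a mean of 18.2 counts it lay close to the detection floor, and its call ended without the first or second library at 1 h or the third recovery library (adjusted p of up to 0.101). Of the 45 tested scavenger and lectin receptor genes it was the single member called higher, STAB1,POSTN,TGFBI was the single one called lower, and the median was 0.06.

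The other named rises were a mixed set. USP50 c86191-g2, of the ubiquitin-specific peptidases that remove ubiquitin from proteins, measured 0.684, 0.582 and 0.924 CPM at 1 h, 1.98, 4.34 and 5.15 CPM at 4 h and 3.17, 2.1 and 2.77 CPM after recovery (log2 change 1.90, SE 0.35, edgeR adjusted p = 0.0192). The gene named ubiquitin carboxyl-terminal hydrolase, c98977-g1, of the same enzyme class, measured 3.35, 3.67 and 4.47 CPM at 1 h, 6.38, 10.4 and 11.6 CPM at 4 h and 13.2, 8.33 and 11.1 CPM after recovery (log2 change 1.51, SE 0.27, edgeR adjusted p = 0.0181). Both were above every 1 h library at 4 h already. Each call ended without the first or second library at 1 h or the first or the third recovery library, with an adjusted p of up to 0.141 and 0.134. A gene named only Ribosomal protein, c96662-g1, with no subunit given, measured 15.1, 14 and 16.4 CPM at 1 h, 54.6, 116 and 95.6 CPM at 4 h and 44.8, 23.1 and 40.3 CPM after recovery (log2 change 1.25, SE 0.24, edgeR adjusted p = 0.0241). Its highest levels were those at 4 h, and it stayed called only without the second recovery library (up to 0.141).

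SDS,SDSL c96900-g1, related to serine dehydratase, which breaks down serine, measured 15.5, 24.3 and 18 CPM at 1 h, 18.4, 29.9 and 32.1 CPM at 4 h and 39, 38.4 and 60 CPM after recovery (log2 change 1.25, SE 0.23, edgeR adjusted p = 0.0212). TARS c103470-g2, related to threonyl-tRNA synthetase, which loads threonine onto its tRNA, measured 26.7, 40.9 and 37.3 CPM at 1 h, 44.5, 94.4 and 97.7 CPM at 4 h and 68, 66.9 and 107 CPM after recovery (log2 change 1.2, SE 0.26, edgeR adjusted p = 0.0463). MLT-7 c104128-g1, named for a peroxidase that cross-links the cuticle of Caenorhabditis elegans, measured 1080, 1380 and 1190 CPM at 1 h, 1480, 1090 and 1230 CPM at 4 h and 2440, 2280 and 3180 CPM after recovery (log2 change 1.11, SE 0.24, edgeR adjusted p = 0.0483). Its 4 h libraries overlapped those of 1 h, and recovery lay above both. The gene named for a receptor-type protein tyrosine phosphatase, c97905-g2, an enzyme class that removes phosphate from tyrosines, measured 2.39, 2.33 and 2.23 CPM at 1 h and 4.76, 4.45 and 5.13 CPM after recovery (log2 change 1.04, SE 0.21, edgeR adjusted p = 0.0288). TARS, MLT-7 and the phosphatase gene lost their calls without any single library (adjusted p of up to 0.229, 0.222 and 0.156), and SDS,SDSL lost its call without the first or the third library at 1 h or recovery (up to 0.134). TARS also missed the threshold in limma-voom (adjusted p = 0.0571), MLT-7 in limma-voom, with median-of-ratios scaling and without a filter (0.0536 to 0.0625), and the phosphatase gene without a filter (0.0509).

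Lists of ribosome and translation genes had negative medians, while single members mostly did not pass. For the cytosolic ribosomal proteins the median log2 change was -0.33, with 79 of 86 tested members negative and 0 called. For the mitochondrial ribosomal proteins it was -0.31, with 40 of 46 negative and 0 called. Ribosome assembly and RNA polymerase I genes, which make and fold ribosomal RNA, had a median of -0.31 with 74 of 87 negative and 1 called lower. The medians stayed between -0.44 and -0.16 in these 3 lists over the scaling, filter, model and single-library alternatives run for lists. Those did not include the fit of the compared groups alone, non-robust dispersions or the fold thresholds. Measured against the mean of the 15 DMSO and tryptamine libraries used, the median level of the cytosolic ribosomal protein genes was 0.19, 0.21 and -0.16 on the log2 scale in the libraries at 1 h, 0.05, 0.35 and -0.16 at 4 h and -0.24, -0.06 and -0.42 after recovery. The second recovery library was above the third library at 1 h, so the list levels overlapped between groups. The third library was the lowest at 1 h, at 4 h and at recovery, and the labels give no pairing by number. For the assembly genes, 1 h gave 0.14, -0.11 and -0.26 and recovery -0.50, -0.26 and -0.38, where the third library at 1 h equalled the second at recovery.

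BRIX1 c97811-g1, related to an assembly factor of the large ribosomal subunit, was the member called. It measured 67.6, 53.5 and 50.5 CPM at 1 h, 54.9, 67.6 and 40.9 CPM at 4 h and 29.4, 38.6 and 31.8 CPM after recovery, so that recovery lay below every other library (log2 change -0.78, SE 0.17, edgeR adjusted p = 0.0403). The call ended under library totals alone (adjusted p = 0.0747) and without any single library except the second at recovery (up to 0.2). TSFM c100480-g3, related to a mitochondrial translation elongation factor, measured 50.5, 53.3 and 39.3 CPM at 1 h, 44.7, 43.8 and 38.3 CPM at 4 h and 28.3, 31 and 27.4 CPM after recovery (log2 change -0.72, SE 0.14, edgeR adjusted p = 0.0247). It lost its call without the first or second library at 1 h or the first or the third recovery library (up to 0.155). In the list of cytosolic ribosomal proteins RPS3A c110173-g1 had the smallest p, with a log2 change of -0.41 (SE 0.14, edgeR adjusted p = 0.189). In the mitochondrial list it was MRPS27 c99385-g1, with -0.67 (SE 0.17, adjusted p = 0.0788), so that neither passed. The gene named only Ribosomal protein, c96662-g1, which was called higher, is outside both lists. The list of translation factors and tRNA synthetases had a median of -0.17 with 65 of 83 negative and 1 called higher, TARS, against that direction. TSFM, called lower, is outside this list. The spliceosome list had a median of -0.21 with 68 of 82 negative, and the proteasome list -0.14 with 41 of 45 negative, each with 0 called. The mitochondrial respiratory chain list had a median of -0.14, 40 of 48 negative and 0 called.

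The other named falls were also mixed. AMD1 c101669-g1, related to the decarboxylase that commits S-adenosylmethionine to polyamine synthesis, measured 466, 532 and 443 CPM at 1 h, 479, 470 and 425 CPM at 4 h and 289, 265 and 259 CPM after recovery (log2 change -0.83, SE 0.15, edgeR adjusted p = 0.0176). TBXAS1 c101208-g2, named for the cytochrome P450 that makes thromboxane, measured 29.5, 28.2 and 27.6 CPM at 1 h, 26.7, 27.9 and 20.6 CPM at 4 h and 12.9, 13.4 and 17.6 CPM after recovery (log2 change -0.96, SE 0.18, edgeR adjusted p = 0.0201). Both were near their 1 h level at 4 h. Also called lower were OGFOD1 c61777-g1, related to an oxygenase that hydroxylates a ribosomal protein (-0.97), TATDN1 c40888-g1, of a deoxyribonuclease family (-1.06), INTS8 c88188-g1, a subunit of the Integrator complex that processes small nuclear RNAs (-0.78), DPH6 c35274-g1, an enzyme of diphthamide synthesis on a translation elongation factor (-0.77), a sulfatase-modifying factor gene, c88590-g1, of the enzymes that activate sulfatases (-1.10), and a methyltransferase gene, c101047-g1 (-1.25). These 6 had edgeR adjusted p values of 0.0213 to 0.0486. TBXAS1 lost its call without the first or second library of either group (adjusted p of up to 0.108). AMD1 stayed called only without the third library at 1 h, and OGFOD1, TATDN1 and DPH6 only without the second recovery library. INTS8, the sulfatase-modifying factor gene and the methyltransferase gene lost their calls without any single library, with an adjusted p of up to 0.228 over these 7 genes. With every library kept, INTS8 was not called by limma-voom, TATDN1, INTS8 and DPH6 were not called under library totals alone or with the gene length trend removed, and the methyltransferase gene was not called by limma-voom (adjusted p = 0.0552) or without a filter (0.0556).

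Among receptors, GPR157 c101957-g1, related to an orphan G protein-coupled receptor, measured 18.2, 24.3 and 16.3 CPM at 1 h, 11.1, 7.45 and 9.46 CPM at 4 h and 9.52, 9.87 and 10.7 CPM after recovery. Its later libraries lay below all at 1 h and did not differ between 4 h and recovery beyond their spread (log2 change -0.97, SE 0.18, edgeR adjusted p = 0.0234). A gene named for a GABA B receptor, c100319-g2, of the G protein-coupled receptors for the transmitter GABA, measured 31.2, 27.9 and 32.5 CPM at 1 h, 44, 31.1 and 48.8 CPM at 4 h and 19.2, 14.5 and 16.2 CPM after recovery (log2 change -0.88, SE 0.19, edgeR adjusted p = 0.0422). Its 4 h libraries reached above those of 1 h before the lower level at recovery. GPR157 stayed called only without the third library at 1 h (adjusted p of up to 0.153). The GABA B receptor gene lost its call without any single library, under library totals alone and with the gene length trend removed (up to 0.201). In the list of G protein-coupled receptors, which holds FZD10 but whose patterns the names Frizzled and GABA B receptor did not match, 2 of 61 tested members were called lower and 0 higher, and the median was 0.08 with 35 positive.

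Most called genes had no usable name in the table. These 95 genes were 53 of the 63 rises and 42 of the 66 falls, and 4 of them stayed called in each of the 16 other settings. The gene with the smallest p of all, c36812-g1 (218 bases), measured 86.4, 96.6 and 23.5 CPM at 1 h, 93.9, 169 and 177 CPM at 4 h and 0.873, 0.485 and 0.649 CPM after recovery. It was abundant in all 6 earlier libraries and near the floor in all 3 at recovery, with a log2 change of -6.67 (SE 0.63, edgeR adjusted p = 0.00128). The gene c83972-g2 (829 bases) measured 17.5, 20.2 and 12.3 CPM at 1 h, 8.81, 11.3 and 11.2 CPM at 4 h and 6.19, 4.69 and 6.19 CPM after recovery (-1.55, SE 0.21, adjusted p = 0.00273). Of the rises, c90549-g1 (504 bases) measured 22.9, 22.3 and 21.8 CPM at 1 h, 43.8, 63 and 56 CPM at 4 h and 71.1, 52.8 and 63.8 CPM after recovery (1.49, SE 0.20, adjusted p = 0.00273). Its change was nearly complete at 4 h. By contrast c99045-g1 (1896 bases) measured 30.4, 27 and 26.1 CPM at 1 h, 23.9, 19.2 and 19.1 CPM at 4 h and 77.4, 55.6 and 50.4 CPM after recovery (1.13, SE 0.19, adjusted p = 0.0165), with its lowest levels at 4 h. These 4 genes were chosen after their values were seen, and the first 3 are among those called in every one of the 16 settings. The median summed length of a gene's assembled isoforms was 460 bases for the genes called higher, 720.5 for those called lower and 619 for all tested genes.

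Of the 129 called genes, 26 shared an assembly component with another called gene. They came from 12 components, and in each of the 12 the called genes moved the same way. Pairs from 1 component can be parts of 1 locus or near copies, and read pairs shared between copies were not counted, so their separate levels are uncertain.

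The 4 h libraries placed rises and falls differently along the interval. Among the 63 rises the 4 h mean lay between the means of 1 h and recovery in 38, beyond recovery in 22 and on the far side of 1 h in 3. On the log2 scale a median of 67.3% of the change to recovery was present at 4 h, and 41 rises were nearer to recovery than to 1 h. Among the 66 falls the 4 h mean lay between both in 48, beyond recovery in 2 and above 1 h in 16. Here a median of 15.6% of the change was present at 4 h, and 14 falls, among them IRF8,IRF4, RFX6 and Frizzled, were nearer to recovery. The 4 h sponges were still in DMSO, so the later step to recovery spans the washout as well as the 24 h, and these cannot be told apart. The genes were chosen on the 1 h and recovery libraries, so these shares describe the called genes and were not tested.

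**Figure D3:**
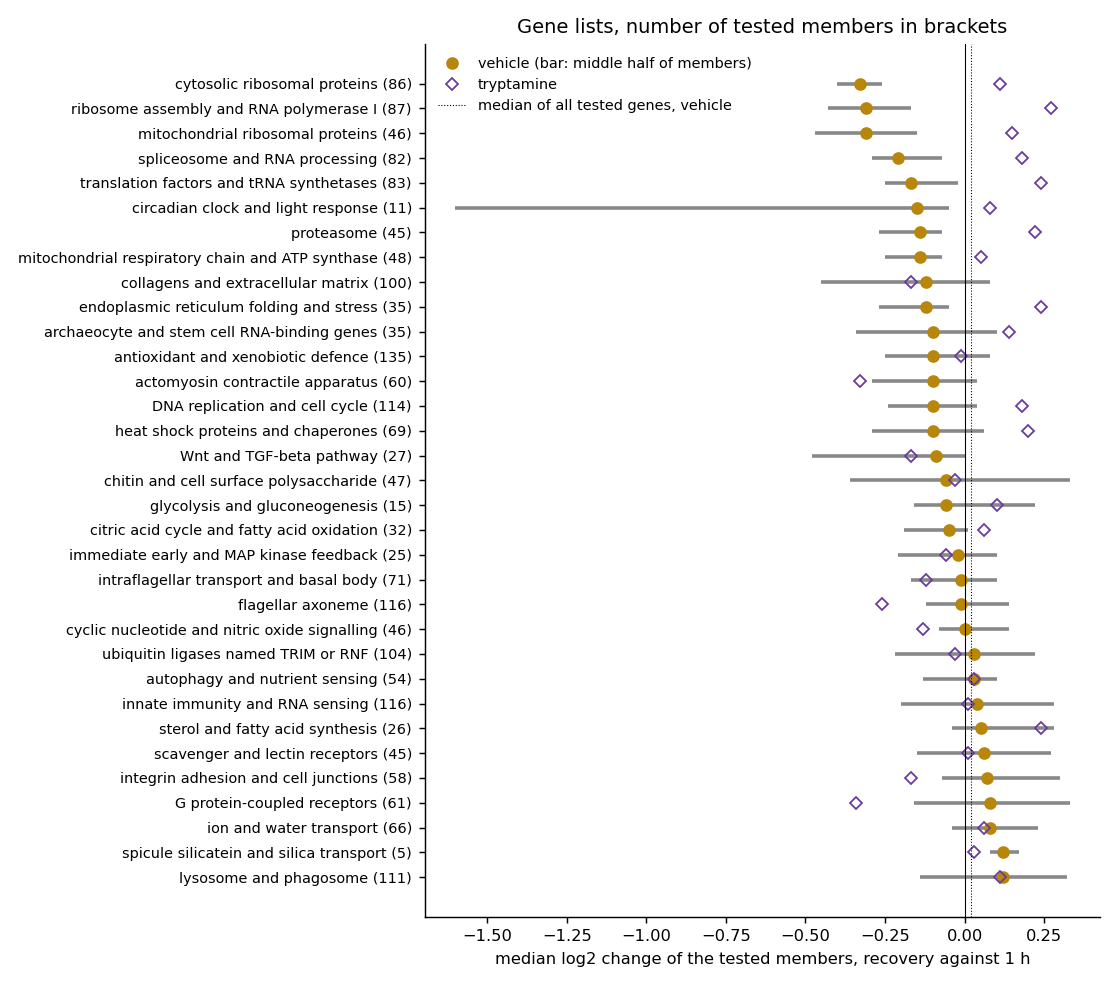
Median log2 change of recovery against 1 h for the 33 gene lists, in vehicle sponges (filled, with a bar from the lower to the upper quartile of the members) and in tryptamine sponges (diamonds), with the number of tested members in brackets. The 3 ribosome lists lay lowest in vehicle sponges, between -0.33 and -0.31, and had medians of 0.11 to 0.27 in tryptamine sponges.

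Of 2006 tested genes in the 33 pathway lists 9 were called (0.449%), near the 0.535% of all tested genes. Lists hold named genes, and of all 9232 tested genes with a usable name 34 were called. The 9 called list members were OAS1, TARS and the scavenger receptor cysteine rich gene among the rises, and IRF8,IRF4, BRIX1, GPR157, FZD10, STAB1,POSTN,TGFBI and KLF10,KLF11 among the falls. Lysosome and phagosome genes, which digest food and debris, had 0 of 111 called and a median of 0.12 with 65 positive. LGMN c104096-g1, related to the lysosomal protease legumain, came nearest. It measured 703, 598 and 659 CPM at 1 h, 766, 789 and 667 CPM at 4 h and 1270, 1030 and 1200 CPM after recovery, without overlap (log2 change 0.83, SE 0.20, edgeR adjusted p = 0.0599), and DESeq2 called it (adjusted p = 0.0205). Actomyosin genes, which drive contraction, had 0 of 60 called and a median of -0.10, and integrin adhesion and cell junction genes 0 of 58 and 0.07. DNA replication and cell cycle genes had 0 of 114 called and a median of -0.10, heat shock proteins and chaperones 0 of 69 and -0.10, and endoplasmic reticulum folding genes 0 of 35 and -0.12. Ion and water transport genes had 0 of 66 called and a median of 0.08. Their member with the smallest p was TRPA1 c94660-g1, related to a cation channel that senses irritants. It measured 11.3, 7.61 and 8.47 CPM at 1 h, 4.31, 2.74 and 3.11 CPM at 4 h and 4.68, 2.67 and 3.54 CPM after recovery (log2 change -1.33, SE 0.35, edgeR adjusted p = 0.0903).

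The remaining lists had 0 members called, with medians from -0.15, in the circadian clock list, to 0.12. The largest of them were the antioxidant and xenobiotic defence genes (135 tested, median -0.10) and the ubiquitin ligases named TRIM or RNF (104 tested, median 0.03). In the latter RNF14 c104629-g1 had the smallest p, with a log2 change of -0.88 (SE 0.21, edgeR adjusted p = 0.0625), and it was called by DESeq2 (adjusted p = 0.0122). Archaeocyte and stem cell RNA-binding genes had 35 tested members and a median of -0.10. Their member with the smallest p, named for musashi homolog 1, c95711-g1, an RNA-binding protein of stem cells, measured 988, 960 and 840 CPM at 1 h and 678, 777 and 629 CPM after recovery (log2 change -0.42, SE 0.13, edgeR adjusted p = 0.139). Squalene synthase, FDFT1 c99861-g1, an early enzyme of sterol synthesis, had a log2 change of 0.72 (SE 0.23, adjusted p = 0.166) in a list of 26 with a median of 0.05. List medians close to 0 depend on the scaling, since the median over all genes was 0.02 with TMM factors and 0.10 with library totals alone. Under library totals alone the lists with medians from -0.06 to -0.01, among them the flagellar axoneme genes, turned positive.

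Markers of cell types were summed per library as a description. The summed level of the choanocyte markers was 1860 to 2030 CPM at 1 h and 1910 to 2160 CPM after recovery, which overlapped, with 0 of 83 called. Contractile pinacocyte markers, 6 genes, summed to 4180 to 5320 CPM at 1 h and 3400 to 3730 CPM after recovery, and archaeocyte markers, 21 genes, to 2680 to 2980 and 2220 to 2370 CPM. Neither of these pairs overlapped, while 0 of their members were called and each had a median log2 change of -0.18. Groups also did not overlap in 22.6% of all tested genes, and a sum leans on its most abundant members. Markers of phagocytic and immune-like cells summed to 7390 to 8580 CPM at 1 h and 8530 to 10600 CPM after recovery, which overlapped, with 1 of 57 called higher, the scavenger receptor cysteine rich gene. No gene of the table was found under the name silicatein, the marker fixed for spicule-making sclerocytes. The part of these shifts in the genes called was not tested.

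Genes named for circadian clock components, which keep daily time in animals, had wide differences without a call. The list had 11 tested members, 0 called, a median of -0.15 and a lower quartile of -1.60. CRY2 c104494-g1, of the cryptochromes, the blue light receptors and clock repressors of animals, measured 595, 847 and 469 CPM at 1 h, 231, 375 and 284 CPM at 4 h and 343, 190 and 121 CPM after recovery (log2 change -1.55, SE 0.46, edgeR adjusted p = 0.162). A second gene of that name, CRY2 c99292-g1, measured 165, 223 and 117 CPM at 1 h, 56.7, 129 and 41 CPM at 4 h and 96.4, 23 and 19.2 CPM after recovery (-1.87, SE 0.79, adjusted p = 0.33). In both the recovery libraries lay below those of 1 h but differed widely among themselves.

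NFIL3 c79044-g1, related to a repressor that clock genes control, measured 70.8, 101 and 71.8 CPM at 1 h, 22.2, 53.3 and 17.2 CPM at 4 h and 47.6, 17.1 and 5.96 CPM after recovery (log2 change -1.80, SE 0.88, edgeR adjusted p = 0.407). TEF c89881-g1, related to an activator that binds similar DNA sites, measured 77.7, 109 and 87.1 CPM at 1 h, 27.6, 60.7 and 22.1 CPM at 4 h and 61.1, 18.7 and 7.2 CPM after recovery (-1.66, SE 0.85, adjusted p = 0.435). In all 4 genes the second library was the highest at 1 h and at 4 h, and the first was the highest at recovery. The 4 were named after their values were seen. CLOCK,NPAS2 c99036-g2, related to an activator at the core of the clock, lay on the other side, with 26.9, 25.6 and 32.3 CPM at 1 h, 29.7, 27.4 and 27.5 CPM at 4 h and 43.2, 38.7 and 39.6 CPM after recovery (0.52, SE 0.15, adjusted p = 0.133). The other 6 tested members, among them TIMELESS c103986-g1, ARNTL2,ARNTL c105303-g1 and CSNK1D,CSNK1E c100608-g2, had log2 changes between -0.34 and 0.01. The labels used here do not give the time of day of sampling.

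**Figure D4:**
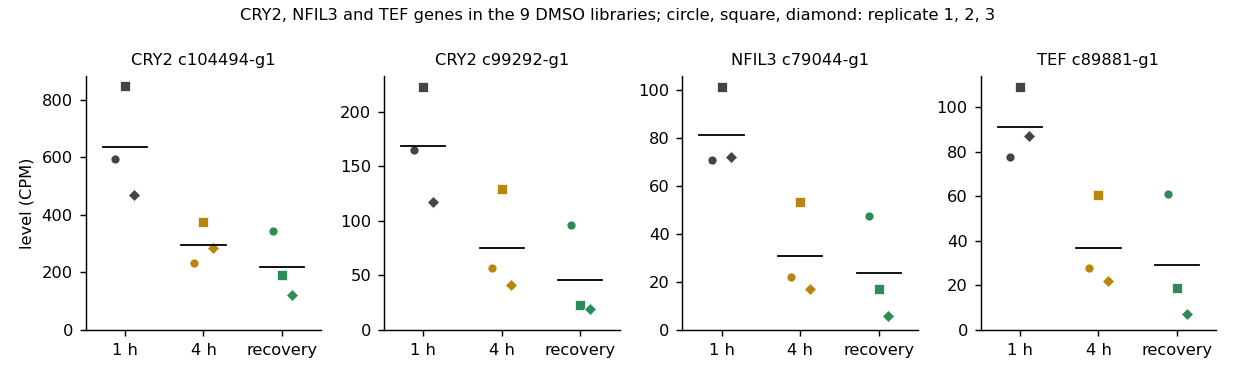
Levels in CPM of the 4 genes named CRY2, NFIL3 and TEF in the 9 DMSO libraries at 1 h, 4 h and recovery, with circle, square and diamond for replicates 1, 2 and 3 and a line at the mean. All recovery libraries lay below the 1 h libraries, but they spread widely, for NFIL3 from 5.96 to 47.6 CPM, and none of the 4 genes was called.

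The same interval in tryptamine sponges, which shares no library with the vehicle comparison, called 70 genes (0.29%), 23 higher and 47 lower. In tryptamine sponges, pairing by replicate number is not given by the labels and was not tested. As an alternative only, a fit blocked on that number gave 83 rises and 146 falls. Without single libraries the count ran from 0 higher and 1 lower, without the third library at 1 h or the second recovery library, to 251 and 316, without the third recovery library. In the unblocked fit 23 genes were called in both treatments, 17.8% of the vehicle calls and 32.9% of the tryptamine calls, 10 of them rises and 13 falls. The named ones were Frizzled c94416-g1, with log2 changes of -1.23 with vehicle and -1.12 with tryptamine, TBXAS1 c101208-g2, with -0.96 and -0.95, and MLT-7 c104128-g1, with 1.11 and 1.21. The unnamed c36812-g1 was lower in both, by -6.67 and -4.30.

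Most vehicle calls had the same sign with tryptamine. Of the 129 genes, 119 did, 58 of the rises and 61 of the falls, against 57.5% of all tested genes. The median log2 change with tryptamine was 0.64 over the vehicle rises and -0.84 over the falls, and 117 of the 129 changed more with vehicle. Choosing genes on the vehicle values favours a larger change there. Across the 24125 genes, which are not independent replicates, the 2 sets of log2 changes had Pearson's r = 0.399 and Spearman's rho = 0.272.

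**Figure D5:**
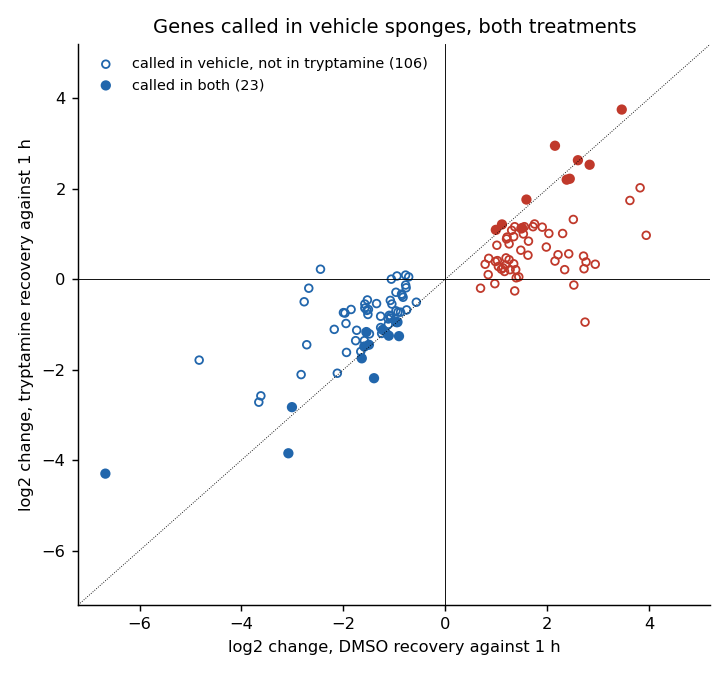
Log2 change of recovery against 1 h for the 129 genes called in vehicle sponges, in vehicle sponges (horizontal) and in tryptamine sponges (vertical), rises red and falls blue, with a dotted line of equal change. The 23 filled points were called in both, and 119 of the 129 points have the same sign in both.

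The test of the difference between both time changes called 0 genes with edgeR, and the smallest adjusted p was 0.704. DESeq2 and limma-voom also called 0. At an unadjusted p under 0.05 there were 1694 genes (7.02%), so no gene is shown to change over the interval in one treatment and not in the other. Some named vehicle calls, chosen after their values were seen, had unequal changes without passing this test. IRF8,IRF4 changed by -2.18 with vehicle and -1.11 with tryptamine (unadjusted p of the difference 0.00879), OAS1 c100925-g2 by 2.21 and 0.54 (0.00389) and NFATC3,NFATC2,NFATC4,NFATC1 c93335-g1 by -2.68 and -0.20 (0.0075). TSFM c100480-g3 changed by -0.72 with vehicle and 0.05 with tryptamine (0.000987) and BRIX1 c97811-g1 by -0.78 and 0.09 (0.00143). Of the 5 named genes with the smallest p of the difference, the other 4 were not called with vehicle. FBLN2 c101296-g3, related to a matrix protein, differed by 0.21 with vehicle and -1.33 with tryptamine (0.000336), STARD9 c99508-g1, related to a kinesin motor, by 0.39 and -0.83 (0.000394), INVS c96267-g1, related to a protein of cilia, by -0.53 and 0.29 (0.000789), and Septin c3108-g1, of the filament-forming septins, by 1.07 and -0.29 (0.00099).

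The lists whose vehicle medians were lowest lay on the other side of 0 with tryptamine. The cytosolic ribosomal protein list had medians of -0.33 and 0.11, ribosome assembly genes -0.31 and 0.27, spliceosome genes -0.21 and 0.18, and proteasome genes -0.14 and 0.22. The reverse order held for G protein-coupled receptors, with 0.08 and -0.34, and for flagellar axoneme genes, with -0.01 and -0.26. No member of these lists was called by the test of the difference, and the gaps between list medians were not tested. In the tryptamine libraries the cytosolic ribosomal protein genes stood at -0.05, 0.04 and -0.08 at 1 h and at 0.15, 0.20 and -0.08 after recovery on the same log2 scale as above, so that the groups overlapped there too. TRPA1 c94660-g1 and LGMN c104096-g1, which missed the threshold with vehicle, passed it with tryptamine, with log2 changes of -1.84 (edgeR adjusted p = 0.0316) and 1.41 (adjusted p = 0.00833). The difference of their changes had unadjusted p values of 0.313 and 0.0529.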

How the data were processed

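Whole juvenile sponges were sequenced as polyA libraries, 18 in 6 groups of 3, grouped by their labels. The authors used featureCounts 2.1.1 to obtain raw read-pair counts per gene, which they deposited unnormalized, without a strand option, and with both ends mapped, chimeric pairs left out and pairs mapping to several places not counted, per the file headers. Gene length, in bases summed over assembled isoforms, was taken as deposited per the file headers. The reads were aligned with STAR, per the submitters' processing notes, with a version not given in the sources used here. Features are genes of an assembled transcriptome, without genome coordinates, so isoforms or copies that share sequence lose their shared pairs, and a gene and an antisense neighbour cannot be told apart. Of 39562 genes, 4925 had no counts in any library.

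From these counts R 4.3.3 with edgeR 4.0.16 gave everything else. Genes were filtered with filterByExpr by group, scaled by TMM (factors 0.854 to 1.09) and fitted in 1 robust quasi-likelihood model of all 18 libraries with a mean per group (12 residual degrees of freedom, common biological coefficient of variation 21%). All tests were two-sided with Benjamini-Hochberg adjustment over 24125 genes. Levels are CPM on TMM-scaled totals. The standard error (SE) of a log2 change is its size divided by the square root of F. Library totals ran from 11379345 to 23769406. No 2 libraries of a group agreed within counting noise (chi-square per degree of freedom 9.51 to 56.8).

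Named genes were those called with a mean of at least 20 counts, groups that did not overlap and a usable name. Of these the rule took up to 12 of the largest rises and up to 12 of the largest falls. It also took the 6 with the smallest p, up to 3 with the smallest p of each list and 5 for the difference. Fewer than 12 rises met the rule, so all of them were named. A list without a gene that met the rule gave its member with the smallest p. Other called named genes, marked genes and 4 unnamed ones were added after their values were seen. The comparison, the members and the 33 gene lists were chosen with earlier results of these data known, and no test was run over a list. On simulated counts of this comparison (23705 genes tested) the model recovered 11.9% of genes with a 1.5-fold change, 55.2% at 2-fold and 83.3% at 4-fold, and 5 of 105 calls were unchanged genes. The changed genes were drawn only from those with a mean of at least 20 counts, so these rates do not cover genes below that level. Same-numbered tryptamine libraries at 1 h and recovery had r = 0.167 to 0.211 between their deviations from the group mean. Unlike numbers were not compared there and the labels give no pairing, so the replicate block is given only as an alternative. Alternatives were DESeq2 1.42.0, limma-voom (limma 3.58.1), other scalings, filters and dispersions, the compared groups alone, a replicate block, removal of a gene length trend, fits with every library dropped once, and tests against folds of 1.2 and 1.5.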

Additional observations from a re-analysis of the deposited data

How the results depend on the processing

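No named gene changed the sign of its log2 change under any alternative run for it, while 10 list medians near 0 (-0.06 to 0.06) changed sign in 1 to 5 settings each, among them those of intraflagellar transport (5), the flagellar axoneme (4), autophagy (4) and immediate early genes (3). Against 63 genes higher and 66 lower at recovery in vehicle sponges, DESeq2 called 180 and 287, the compared groups alone 338 and 404, library totals alone 113 higher, a fold threshold of 1.2 29 and 20, and one of 1.5 1 and 6. Without single libraries the counts ran from 1 to 53 higher and from 5 to 40 lower. DESeq2 called 128 of the 129 genes, the compared groups alone 122, limma-voom 106, library totals alone 112 and the fit without a filter 111. Of the 34 named calls, 21 held in all 10 settings that keep every library, and 33 were lost without at least 1 single library, 8 of them without any. The fit without a library rests on fewer samples.

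For the replicate numbers, same-numbered vehicle libraries had correlations of -0.029, 0.0175 and 0.204 between their deviations, against -0.189 to 0.144 for unlike numbers. The third same-numbered pair lay above every unlike pair, and the first and second did not. The labels give no pairing, so the main fit took none, and structure shared by replicate number was not tested. With the replicate block 271 genes were called higher and 269 lower, including 128 of the 129. In tryptamine sponges (23 higher, 47 lower) DESeq2 called 144 and 337, limma-voom 6 higher, library totals alone 45 and 78, the fit without a filter 15 higher, the compared groups alone 0 and 4, the replicate block 83 and 146, and fold thresholds of 1.2 and 1.5 gave 5 and 19, and 0 and 1. Without single libraries these ran from 0 to 251 higher and from 1 to 316 lower. The difference of both time changes called 0 genes in each of 24 settings, the block included, with 456 to 2620 genes at an unadjusted p under 0.05.

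Of 846 values of named genes, 126 lost and 45 gained a call. Of 462 list medians 36 moved by more than their spread, and the 3 ribosome lists stayed negative in all of theirs. List medians were not computed for the compared groups alone, non-robust dispersions or the fold thresholds. The causes of these moves were not tested. At this depth a change of 1.5-fold was mostly not detectable with 3 libraries a group, so genes and lists without a call are not shown to be unchanged.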
